A study of Mus musculus with 12 samples.

Results

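The genes described here are those whose level separated the 2 genotypes of *Gjb2* in every cochlear turn at once. A gene was a member where all 6 homozygous libraries lay above, or all 6 lay below, the 6 wild-type libraries after scaling. Of 15668 autosomal genes that reached 1 FPKM in 2 or more libraries, 229 met this rule, which is 1.46% of the genes tested. In 127 of them (0.811%) the homozygous libraries were the higher ones, and in 102 (0.651%) they were the lower ones. The whole table holds 37432 genes. The split of directions depended on the scaling, with 187 higher and 59 lower genes on the FPKM as deposited and 125 and 56 after scaling to an equal sum. Among single libraries, wild-type basal repeat 2 weighed most on the count: without it 555 genes did not overlap, and without homozygous basal repeat 2, 395 did not. Among turns, the basal turn weighed most. Without it 3412 genes did not overlap, against 627 without the apical and 747 without the middle turn.

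RNA-seq was performed at P14 on the cochlea of mice homozygous for *Gjb2* 35delG and of wild-type mice. Each cochlea was cut into an apical, a middle and a basal turn, which with 2 repeats for each of the 6 groups gave 12 libraries. The homozygous mice were males produced from embryonic stem cells by tetraploid complementation. They were delivered by cesarean section and were nursed by ICR females, and their background was almost entirely C57BL/6J. Their line was founded with haploid stem cells injected into oocytes of B6D2F1 females, a cross of C57BL/6J and DBA2. It was then backcrossed to C57BL/6J. The tetraploid host embryos were also B6D2F1. Wild-type males of equal age were bought, so that the mutation and the origin of the mice cannot be told apart in any library. How many mice or stem cell lines stand behind a library is not given in the sources used here, and the p-values therefore measure only the spread between these libraries. Turns cut from the same cochleae would not be independent, but which libraries share mice is not stated, so that the 6 libraries of a genotype may stand for as few as 2 repeats and the p-values and SDs over 6 may be too small.

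*Gjb2* encodes connexin 26, which builds gap junction channels between the non-sensory cells of the cochlea together with connexin 30, the product of *Gjb6*. These channels pass potassium ions and small molecules between supporting cells, fibrocytes and cells of the stria vascularis, and loss of connexin 26 causes deafness. Around the onset of hearing the cochlea still matures under the control of thyroid hormone, which acts through nuclear receptors.

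FPKM, a measure of fragments corrected for transcript length and library size, were scaled by a median-of-ratios factor for each library (0.917 to 1.06). The sums of FPKM lay between 316425 and 408162 and between 13729 and 14703 genes reached 1 FPKM in a library, but FPKM hold no read counts, so that the depth is unknown and counting error could not be computed. Genotypes were compared with limma on log2(scaled FPKM + 1) with turn as a block, and a difference given below as log2 is on this scale, which understates the change of low genes. A gene passed the test where its Benjamini-Hochberg adjusted p was under 0.01 and its fold change exceeded 2. In bulk tissue, fewer cells of a type and less RNA per cell cannot be told apart.

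The level of the mutated gene did not separate the genotypes. *Gjb2* (ENSMUSG00000046352.7) lies at chr14:57098600-57104702 on the minus strand of mm10. Its scaled FPKM was 139.7 to 434 (median 255) in the wild-type and 58.6 to 451 (median 294) in the homozygous libraries, and the ranges overlapped. The log2 difference was −0.21 (0.49, 0.81 and −1.94 in the apical, middle and basal turns, interaction adjusted p = 0.0365 from limma), and an exact permutation of genotypes within turns gave a two-sided p of 0.685 where the smallest possible p is 0.00926. The FPKM count transcripts of the gene whether or not they carry the deletion. *Gjb6*, the partner, was at 124 to 292 in wild-type libraries against 154 to 448 in homozygotes, with a log2 difference of 0.49 (standard error 0.33, adjusted p = 0.632 from limma). By turn it was 1.03, 1.27 and −0.81, so that the basal turn went the other way (interaction adjusted p = 0.0144). Neither connexin was a member.

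Most members differed by little. The log2 difference over the 3 turns ranged from 0.18 to 4.56 among the higher members, with a median of 0.57, and from −0.15 to −3.34 among the lower members, with a median of −0.67, whereas the median of all autosomal genes tested was 0.00199. Of the 229 members, 59 had a fold change over 2 (32 higher and 27 lower) and 112 were under 1.5-fold. With limma, 25 autosomal genes passed the test, 16 higher (0.102% of those tested) and 9 lower (0.0574%), and all 25 were members. The rule and the test read the same values, so this overlap is fixed in part by the rule and supports nothing. At an unadjusted p under 0.05, 1923 autosomal genes would have been counted.

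The edge of the rule was a fine one. Just inside it, the highest wild-type value of *Sars2* was 5.56 and its lowest homozygous value 5.57, and the values of *Lmf1* were 10.42 and 10.44. Among lower members, *Macf1* had a lowest wild-type value of 15.01 and a highest homozygous value of 14.96, and *Ide* had 15.56 and 15.5. Just outside it, among genes with a mean of at least 1 in both genotypes (a limit set after the nearest genes proved to be ties at 0), *Glt8d1* had a highest wild-type value of 20.95 and a lowest homozygous value of 20.94, and *Nit1* had 10.78 and 10.76. On the lower side, *Rsph3b* had a lowest wild-type value of 2.88 and a highest homozygous value of 2.89, and *Zfp747* had 2.56 and 2.58.

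**Figure D1:**
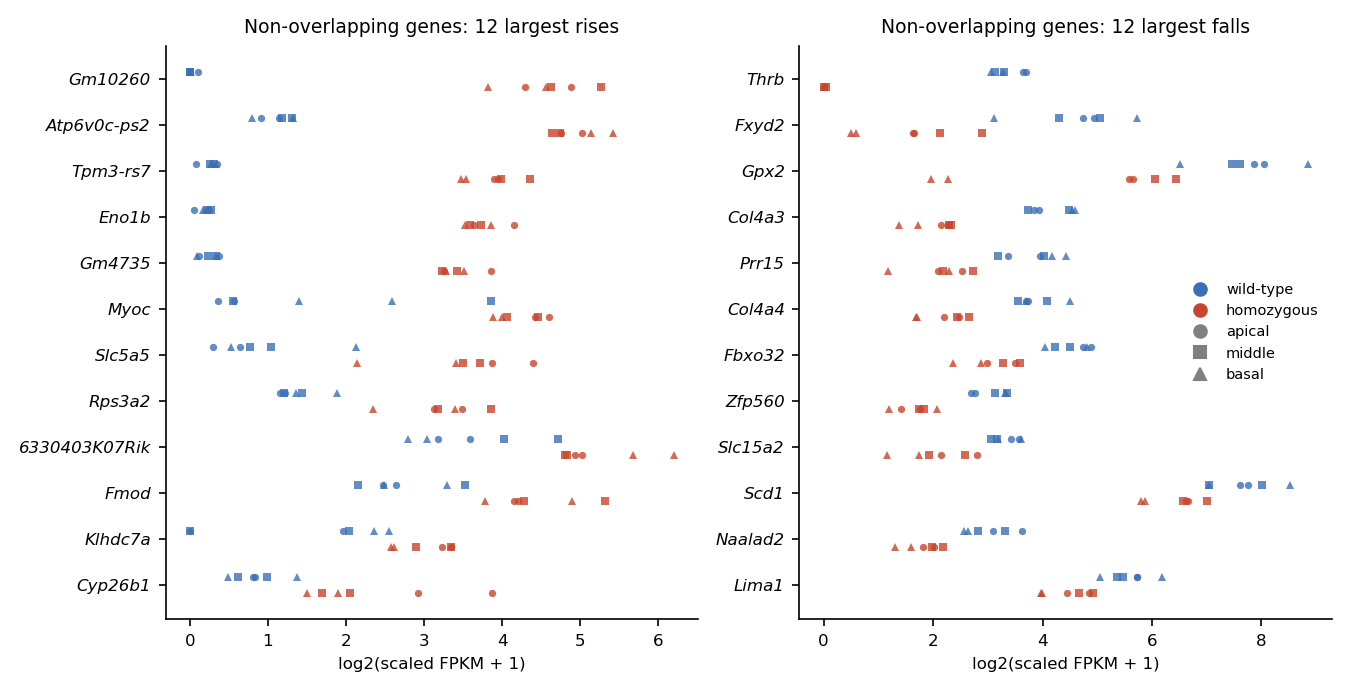
Scaled FPKM of the 12 largest rises and the 12 largest falls among members with a mean of at least 5 in the higher genotype, as log2(scaled FPKM + 1) on the horizontal axis; each point is 1 library, the colour gives the genotype and the shape the turn. *Gm10260* and *Thrb* stand near 0 in every library of one genotype, whereas the libraries of *Klhdc7a* and *Lima1* come close to each other.

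Near-identical copies of other genes led the higher members. These are mostly processed pseudogenes or retrogenes, which are intronless copies made from the mRNA of another gene. Of the 16 genes that rose, 13 matched the longest protein-coding transcript of another gene with at least 90% identity over at least 80% of their own length, and none of the 9 that fell did. Among all members, such copies made up 17 of 127 higher members (13.4%) and 5 of 102 lower members (4.9%), against 424 of 15668 autosomal genes tested (2.71%). The criterion was set after the names had been seen. By annotation, 15 higher members (11.8%) and 3 lower members (2.94%) were pseudogenes, against 2.6% of the genes tested. Some copies, such as *Gm10260*, *Tpm3-rs7*, *Eno1b* and *Gm4735*, were under 1 FPKM in every wild-type library. They were tested only through the homozygous libraries, which partly sets these shares among higher members. The authors kept uniquely mapped reads, so that reads lying wholly in shared sequence could be lost or misplaced, and the levels of all copies are uncertain.

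*Gm10260*, at chr13:97760072-97760632, had the largest difference of all members. It was listed at 0 to 0.0746 (median 0) in wild-type and stood at 13.1 to 37.6 (median 23.3) in homozygous libraries. The libraries were far apart, with a log2 difference of 4.56 (standard error 0.19, adjusted p = 5.89e-07 from limma). Its transcript of 561 bases matched *Rps18*, which encodes a protein of the small ribosomal subunit, over 545 bases with 5 mismatches. *Rps18* itself was at 302.5 ± 91.5 (SD, n = 6) in wild-type libraries against 217 ± 79.9 in homozygotes, a log2 difference of −0.51 (adjusted p = 0.507 from limma). An lncRNA gene, *Gm26619*, overlaps *Gm10260* on the opposite strand, and whether reads were counted by strand is not given in the sources used here.

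*Atp6v0c-ps2*, a copy of the gene for a membrane subunit of the vacuolar proton pump, lies at chr6:37806086-37806550. It was at 0.733 to 1.51 (median 1.24) in wild-type libraries against 23.9 to 42.1 (median 28.8) in homozygotes, a 25.9-fold ratio of means. Its log2 difference was 3.84 (standard error 0.15, adjusted p = 5.02e-07 from limma). The copy differs from *Atp6v0c* by 1 mismatch in 465 bases, and *Atp6v0c* was at 99.4 ± 10.7 (SD, n = 6) and 87.9 ± 23.04, with overlapping libraries.

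The bases below come from the GENCODE M21 transcripts of GRCm38 and are shown because a read is told apart between a copy and its match only where it covers such a difference. Each pair is an ungapped stretch of 60 bases inside the coding sequence of the match, 5′ to 3′, with the differing bases in capitals. The stretch with the most differing bases was taken. For *Tpm3-rs7* with *Tpm3* and *Hmga1b* with *Hmga1*, no such stretch held a difference.
Gm10260: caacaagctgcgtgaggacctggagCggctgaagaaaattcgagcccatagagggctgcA
Rps18: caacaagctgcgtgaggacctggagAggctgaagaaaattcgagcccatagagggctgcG
Atp6v0c-ps2: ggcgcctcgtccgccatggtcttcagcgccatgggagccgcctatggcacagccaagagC
Atp6v0c: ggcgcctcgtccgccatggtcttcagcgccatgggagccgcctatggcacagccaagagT
Rps3a2: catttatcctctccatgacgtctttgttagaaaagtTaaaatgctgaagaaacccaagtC
Rps3a1: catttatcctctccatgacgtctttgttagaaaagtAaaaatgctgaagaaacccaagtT
Gm9825: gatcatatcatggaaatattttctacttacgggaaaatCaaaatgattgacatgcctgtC
Rnps1: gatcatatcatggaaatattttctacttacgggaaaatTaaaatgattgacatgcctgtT

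The log2 differences of the 17 higher copies ranged from 0.73 (*Gm18860*) to 4.56. *Tpm3-rs7*, a copy of a tropomyosin gene, was at 0.0586 to 0.279 in wild-type libraries against 10.1 to 19.6 in homozygotes (log2 difference 3.60, standard error 0.14, adjusted p = 3.64e-07 from limma). *Eno1b* and *Gm4735*, both copies of the gene for the glycolytic enzyme enolase, reached 10.5 to 16.8 and 8.43 to 13.5 in homozygous libraries from at most 0.213 and 0.293 in wild-type. Because these 2 genes are 99.77% identical to each other over the length of *Gm4735*, the share of each cannot be told apart.

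*Rps3a2* was not near 0 in wild-type. It was at 1.23 to 2.71 in wild-type libraries against 4.09 to 13.6 in homozygotes, a 5.39-fold ratio of means (log2 difference 1.85, standard error 0.24, adjusted p = 0.00676 from limma). *Hmga1b*, a copy of a gene for a chromatin protein, and *Gm9825*, a copy of the splicing factor gene *Rnps1*, were lower, with 2.49 to 6.29 and 3.07 to 5.07 in homozygous libraries against at most 0.0897 and 0.216. Both were named after their values had been seen.

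Of the matches of the 17 higher copies, 16 were tested and were no members themselves. Their log2 differences lay between −0.51 and 0.62, 11 of the 16 were below 0, and none passed the test with limma. The match of the remaining copy, *Gm4735*, was *Eno1b*, itself a member that rose. Copies were picked among the members and these matches among the other genes, so that the contrast between them is partly set by the choice.

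**Figure D2:**
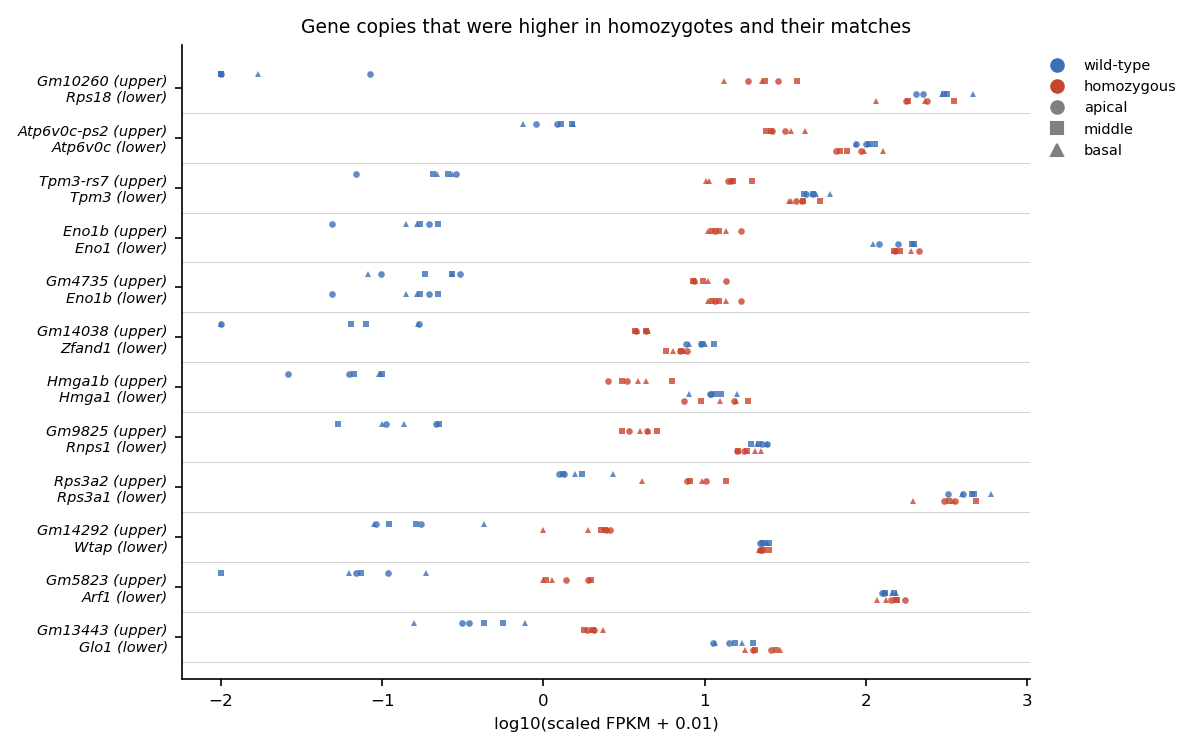
Levels of the 12 copies with the largest log2 difference among higher members (upper points of each pair) and of the genes they match (lower points), as log10(scaled FPKM + 0.01); each point is 1 library, coloured by genotype and shaped by turn. The homozygous libraries of a copy lie to the right of its wild-type libraries, whereas the libraries of the matched gene overlap, except *Eno1b*, which is itself a copy.

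Thyroid hormone receptor beta was the largest fall. *Thrb* (chr14:17660896-18038090) encodes a nuclear receptor that is required for the development of hearing. Every wild-type library stood at 7.35 to 11.9 (median 8.78), and the homozygous libraries were listed at 0 to 0.0363 (median 0). The log2 difference was −3.34 (standard error 0.12, adjusted p = 2.56e-07 from limma), and it was −3.67, −3.19 and −3.17 in the apical, middle and basal turns. The nearest genes tested on either side did not pass the test: *Rarb*, 1090 kb away, was at 7.79 ± 1.46 (SD, n = 6) and 5.73 ± 1.08, and *Nr1d2*, 166 kb away, was at 30.6 ± 4.52 and 28.7 ± 4.84. *Thrb* lies on the chromosome of *Gjb2*.

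*Thrb* was one of 15 genes tested of thyroid hormone receptors, transport, deiodinases and cofactors. In this list 1 member was higher and 1 lower (13.3%, against 1.46% of all genes tested), and the median was −0.00897. The higher one was *Rxrb*, a receptor that pairs with thyroid hormone receptors, at 18.2 to 19.7 in wild-type libraries against 20.2 to 23.3 in homozygotes (log2 difference 0.19, adjusted p = 0.321 from limma). None of 14 genes of thyroid hormone response was a member, and the median of that list was −0.07.

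The lower members held a pair of basement membrane genes. *Col4a3* and *Col4a4* encode 2 of the chains of the type IV collagen network whose loss causes Alport syndrome, a disease of kidney and ear. *Col4a3* was at 12.3 to 23.2 (median 17.8) in wild-type libraries against 1.59 to 4.04 (median 3.61) in homozygotes. It fell 5.61-fold as a ratio of means (log2 difference −2.17, standard error 0.23, adjusted p = 0.00193 from limma). *Col4a4* was at 10.7 to 21.7 (median 12.1) and 2.21 to 5.28 (median 4.01), 3.79-fold lower (log2 difference −1.68, standard error 0.22, adjusted p = 0.00726 from limma). Of 37 collagen genes tested, 1 other gene was a member, *Col16a1*, at 4.73 to 8.04 and 8.56 to 16.5. The shares were 5.41% lower and 2.7% higher, against 0.651% and 0.811% of all genes tested.

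*Col4a3* and *Col4a4* run in opposite directions on chromosome 1 from starts 126 bases apart. The bases between them, at chr1:82586850-82586975 of GRCm38.p6, were picked for display after the fall of these genes was known. They were taken from RefSeq, 5′ to 3′ on the minus strand, so that they begin next to *Col4a3* and end next to *Col4a4*. The label before the bases names the region and gives no direction. A match to AGGTCA, a short motif that nuclear receptors bind, is in capitals. Whether this motif bears on the fall of *Col4a3* or *Col4a4* was not tested. No search for it is given for other members, including those with a promoter in the table.
Col4a4 to Col4a3: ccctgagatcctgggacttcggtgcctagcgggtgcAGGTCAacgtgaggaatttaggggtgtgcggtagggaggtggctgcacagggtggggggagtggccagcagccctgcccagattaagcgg
AGGTCA stood on either strand in 2372 of 32851 upstream windows of the same length (7.22%), so that the match is a description and no site. Such a search over the members was void, as only 73 of 102 lower members and 70 of 127 higher members had a promoter in the table.

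Ion transport and antioxidant genes followed among the falls, with values that did not pass the test. *Fxyd2*, the gamma subunit of the sodium-potassium pump, was at 7.65 to 51.6 (median 27.7) in wild-type libraries against 0.409 to 6.46 (median 2.13) in homozygotes (log2 difference −3.08, standard error 0.43, adjusted p = 0.0109 from limma). *Gpx2*, a glutathione peroxidase, was at 90.5 to 459 (median 213) and 2.92 to 85.6 (median 48.1), with a log2 difference of −3.06 (standard error 0.65, adjusted p = 0.0855). *Slc15a2*, a peptide transporter, was at 7.28 to 11.2 and 1.23 to 6. *Gpx2* was the only member among 24 genes of oxidative stress defence (4.17%, against 1.46% of all genes tested), whose median was −0.04.

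Other falls among the named genes were of mixed function. *Scd1*, which makes monounsaturated fatty acids, was at 131 to 368 (median 205) and 54.8 to 127 (median 95.5), a log2 difference of −1.25 (standard error 0.29, adjusted p = 0.127 from limma). *Fbxo32*, a ubiquitin ligase of muscle wasting, was at 15.5 to 28.6 and 4.15 to 11.02 (adjusted p = 0.0109). *Naalad2*, a peptidase, fell 2.85-fold, from 4.92 to 11.4 in wild-type to 1.46 to 3.52 (adjusted p = 0.00466). *Lima1*, an actin-binding protein, was at 32 to 71.4 and 14.7 to 29.2, and *Ndrg2*, among the most abundant lower members, was at 150 to 308 and 79.8 to 138, with adjusted p-values of 0.0607 and 0.159. *Prr15* was at 8.15 to 20.5 and 1.25 to 5.63.

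Several lower members of known function were named after their values had been seen. *Bdnf*, a neurotrophin that supports inner ear neurons, was at 1.16 to 3.95 in wild-type libraries against 0.0842 to 0.863 in homozygotes (log2 difference −1.15, standard error 0.19, adjusted p = 0.0290 from limma). *Dhrs3*, which turns retinal back to retinol, was at 25.5 to 59.02 and 15.3 to 23.8. *Malat1*, an abundant nuclear lncRNA, was at 137 to 249 and 75.2 to 135. None of these 3 passed the test.

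Zinc finger genes named Zfp or Znf were members in 1 direction. Of 338 tested, 10 were lower (2.96%, against 0.651% of all genes tested) and none higher, and 2 fell by the test, *Zfp560* and *Zfp951*, while the median of all 338 was −0.09. *Zfp560* was at 5.44 to 9.21 in wild-type libraries against 1.3 to 3.22 in homozygotes (log2 difference −1.42, standard error 0.16, adjusted p = 0.00343 from limma). *Zfp951* was at 1.04 to 1.77 in wild-type and was listed at 0 in all 6 homozygous libraries. This family was picked after the members were known, and such genes share much of their sequence, so that their reads may be divided between paralogs.

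Other higher members of large difference were no copies. *Myoc*, myocilin, was at 0.287 to 13.5 (median 1.06) in wild-type libraries against 13.8 to 23.4 (median 18.1) in homozygotes (log2 difference 2.69, standard error 0.54, adjusted p = 0.0745 from limma). *Slc5a5*, the sodium-iodide symporter, was at 0.231 to 3.39 (median 0.638) and 3.44 to 20.1 (median 11.3), a log2 difference of 2.61 (standard error 0.40, adjusted p = 0.0239). In both genes, 1 wild-type library came close to the homozygous ones. *Fmod*, a collagen-binding proteoglycan, was at 3.46 to 10.5 and 12.8 to 38.9 (adjusted p = 0.0474).

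*Cyp26b1*, which breaks down retinoic acid, was at 0.403 to 1.6 in wild-type libraries against 1.83 to 13.6 in homozygotes (adjusted p = 0.0939 from limma). *Klhdc7a* was at 0 to 4.88 and 4.99 to 9.18, and *6330403K07Rik* was at 5.95 to 25.3 and 27.1 to 72.6. The higher members of highest level were *Glul*, glutamine synthetase, at 318 to 480 and 485 to 809, and *Abhd12*, a lipase, at 49.1 to 89.5 and 100.5 to 151, with log2 differences of 0.54 and 0.73. None of these 5 genes passed the test.

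Of 32 splicing genes named Srsf, Hnrnp or U2af, 5 were higher members (15.6%, against 0.811% of all genes tested) and none lower, and the median of the 32 was 0.20. *Hnrnpdl* was at 26 to 33.3 in wild-type libraries against 41.6 to 47.6 in homozygotes, and *Srsf7* at 31.2 to 43.9 and 49.1 to 62.7. Of 34 aminoacyl-tRNA synthetase genes, which load tRNAs with amino acids, 4 were higher members (11.8%) and none lower, and the median of the 34 was 0.02, with 20 above 0. None of these 9 genes passed the test, and both families were picked after the members were known.

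Of 14 tested genes known to differ between inbred strains, 3 were members (21.4%, against 1.46% of all autosomal genes tested), of which 2 were higher and 1 was lower. *Wdfy1*, which encodes an endosomal protein, was at 3.81 to 6.38 in wild-type libraries against 11.2 to 15.5 in homozygotes, a 2.76-fold rise (log2 difference 1.31, standard error 0.12, adjusted p = 0.000517 from limma). *H2-Ea-ps*, a pseudogene of an MHC class II chain that is silent in C57BL/6, was listed at 0 in all 6 wild-type libraries and stood at 1.11 to 11.8 (median 2.15) in homozygous libraries (log2 difference 1.94, standard error 0.37, adjusted p = 0.0604). *Ide*, an insulin-degrading enzyme, was lower by 0.22 on the log2 scale, as given at the edge of the rule. *H2-Ea-ps* was tested only because homozygous libraries reached 1 FPKM. The median of the 14 genes was 0.19.

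Of 27 class I and II histocompatibility genes, which present peptides to T cells, 24 had a positive log2 difference and the median was 0.52. Of these 27, 2 were higher members (7.41%, against 0.811% of all autosomal genes tested) and none passed the test. The 2 were *H2-Ea-ps* and *H2-T10* (a further member of this kind, *H2-Q5*, is not in the list), the latter at 0.0612 to 0.53 in wild-type libraries against 0.904 to 1.56 in homozygotes (adjusted p = 0.0300 from limma). Both were under 1 FPKM in every wild-type library and were tested only through the homozygous libraries, which partly sets this share. *H2-Ea-ps* is also counted among the strain genes above. The summed level of the list was 335 to 758 in wild-type libraries against 362 to 1058 in homozygotes.

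The share of members differed between chromosomes. Chromosome 17 held 23 members among 801 genes tested (2.87%), 16 higher and 7 lower, and chromosome 13 held 4 among 584 (0.685%). All 7 members on chromosome 16 were lower. Starts within 1 Mb of the next member joined 81 members into 33 groups, of which 22 held members of 1 direction. How many groups genes drawn at random would form, and how often these would share a direction, was not tested. The largest group ran from chr17:33955812 to 36145923 with 10 of 118 genes tested there, 9 higher and 1 lower. It held *Rxrb*, *H2-Ea-ps*, *H2-Q5*, *H2-T10*, *Vars*, *Vars2* and *Gm11127*, and the lower one was *Hspa1a*. *Gm11127*, a histocompatibility-region gene that passed the test, was at 0 to 0.0941 in wild-type libraries against 0.758 to 2.44 in homozygotes (adjusted p = 0.00343 from limma). Of 209 genes tested within 5 Mb of *H2-Ea-ps*, 10 were higher and 1 was lower (5.26%), a window likewise set afterwards.

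On chromosome 3, 4 of 5 genes tested over 97.6 kb were lower. *2010016I18Rik* was at 1.14 to 7.45 in wild-type libraries against 0.0315 to 1.07 in homozygotes (log2 difference −1.68, adjusted p = 0.00887 from limma), and *Gm38244*, *Cept1* and *Dram2* were the others. *Cept1* and *Dram2* overlap each other on opposite strands. The limit of 1 Mb between neighbours was set after the members were known. Each group runs from its first to its last member, so that its share of members is high by construction.

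Within 5 Mb of *Gjb2*, 2 genes were members, both higher. The genes tested in this window were not counted, so that no share can be given. Over the whole of chromosome 14, 10 of 558 genes tested were members (1.79%, against 1.46% of all autosomal genes tested). *Slc7a8*, an amino acid exchanger, was at 9.66 to 11 in wild-type libraries against 11.4 to 29.8 in homozygotes (log2 difference 1.06, standard error 0.20, adjusted p = 0.0566 from limma). *Gm43305* was at 2.18 to 9.3 and 10.4 to 18.9 (log2 difference 1.41, adjusted p = 0.0580). Neither passed the test.

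**Figure D3:**
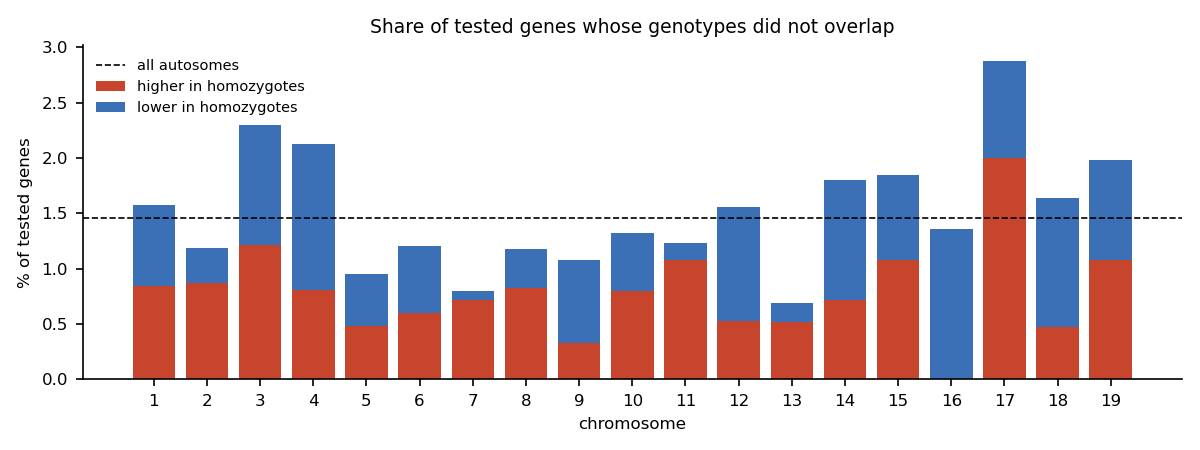
Share of the autosomal genes tested on each chromosome whose genotypes did not overlap, stacked by direction, in % of tested genes; the dashed line is the share over all autosomes, 1.46%. Chromosome 17 has the highest share, 2.87%, and chromosome 13 the lowest, 0.685%.

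**Figure D4:**
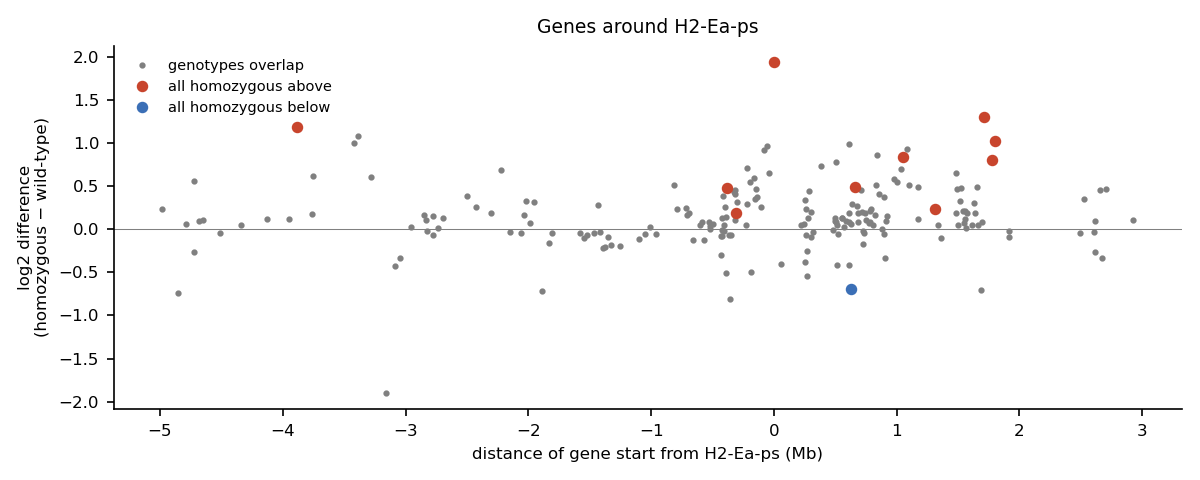
Log2 difference (homozygous minus wild-type) of the 209 autosomal genes tested within 5 Mb of *H2-Ea-ps* against the distance of their start from it in Mb; coloured points are the 11 members. Of these, 10 lie above 0 and 1 lies below.

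All members had the same direction in each turn, as the rule requires when the libraries of a turn do not overlap. The size varied. For higher members the median log2 difference was 0.57 apically, 0.65 for the middle and 0.55 for the basal turn, and for lower members it was −0.64, −0.48 and −0.88. Of the 102 lower members, 60 differed most in the basal turn, 29 apically and 13 in the middle turn, whereas of the 127 higher members 38, 39 and 50 did. The medians of all autosomal genes tested were −0.03, 0.05 and −0.02 in the apical, middle and basal turns.

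Whether the effect differed between turns was tested by the interaction of genotype and turn in limma. Of 15668 autosomal genes, 2643 (16.9%) passed at an adjusted p under 0.05, and so did 11 members, 4 higher and 7 lower. The rule keeps genes that separate in every turn, so that the low number among members is partly set by it. *Gpx2* differed by −2.34, −1.29 and −5.56 from apex to base (adjusted p = 0.0185). Without wild-type basal repeat 2, the interaction passed in 22 members. *Col4a3* differed by −1.69, −1.80 and −3.02 (adjusted p = 0.0390), and *Bdnf* by −1.59, −0.47 and −1.39 (adjusted p = 0.0416). *Ppm1a*, a phosphatase, went the other way, with −1.13, −1.50 and −0.34 (adjusted p = 0.0102).

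**Figure D5:**
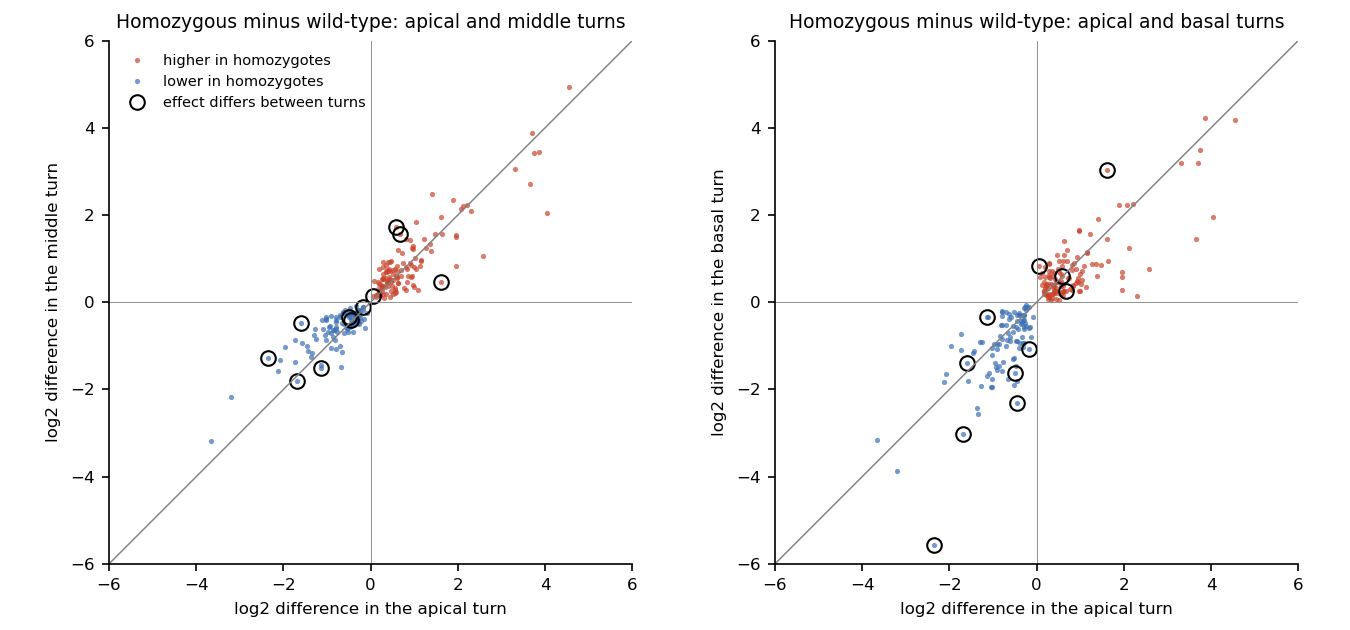
Log2 difference (homozygous minus wild-type) of the 229 members in the apical turn against that in the middle turn (left) and in the basal turn (right); the line marks equal differences and circles mark the 11 members whose effect differed between turns. The point at −2.34 and −5.56 on the right is *Gpx2*.

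A group of 6 members was near 0 in one genotype and present in the other, with every library at 1 scaled FPKM or more in one and under 0.1 in the other. *Gm10260*, *Hmga1b* and *H2-Ea-ps* were present in homozygous libraries, and *Thrb*, *Zfp951* and *4930481A15Rik*, an lncRNA gene, in wild-type libraries. *4930481A15Rik* was at 1.41 to 3.78 in wild-type libraries against 0 to 0.0488 in homozygotes (log2 difference −1.85, standard error 0.15, adjusted p = 0.000229 from limma). It overlaps *Drap1* on the opposite strand. In 31 higher members every wild-type library was under 1 scaled FPKM, and in 23 lower members every homozygous library was. Such members reached the filter mainly through the other genotype.

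None of 210 marker genes tested in 18 cell type lists was a member, against 1.46% of all genes tested. At that share few of 210 genes would be members, so that the absence says little. At an unadjusted limma p under 0.05, 4 of 12 strial marginal genes and 4 of 10 melanocyte and intermediate genes were higher, none lower. Of 15 endothelial and pericyte genes 4 were higher and 3 lower. Of 18 hair cell genes 3 were lower and none higher, and of 20 supporting cell genes 2 were lower and 1 higher. Osteoblast and fibrocyte genes gave 1 higher each, chondrocyte genes 1 in each direction and skeletal muscle genes 1 lower. No gene of the other lists, such as those of neurons and neutrophils, was counted. Of all 15668 autosomal genes 1923 were counted, both directions together, and a split by direction is not given. No marker gene passed the test with limma, but several lists had medians away from 0. The median log2 difference was 1.02 for 12 genes of strial marginal cells, 1.003 for 10 of melanocytes and intermediate cells, 0.86 for 12 of osteoblasts and 0.71 for 13 of neutrophils, and it was −0.51 for 15 of Schwann cells and −0.53 for 7 of chondrocytes. The summed level of strial marginal genes was 257 to 698 in wild-type libraries against 151 to 1210 in homozygotes, and that of osteoblast genes 1001 to 5786 and 1413 to 4560, and that of neutrophil genes 38.6 to 2125 and 125 to 6815, so that these ranges overlapped. The medians of the other 11 lists lay between −0.43 and 0.42. For 18 hair cell genes the median was −0.39 and the summed level 232 to 892 and 371 to 917. The part of tissue make-up in the members was not tested.

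The remaining function lists held no member, where 1.46% of all genes tested were members. The median was 0.40 for 17 genes of hypoxia and glycolysis, of which 14 were above 0, −0.21 for 20 circadian clock genes and −0.21 for 15 of glucocorticoid response. It was −0.10 for 23 genes of cholesterol synthesis, 0.11 for 23 interferon-stimulated genes, 0.06 for 17 p53 targets, 0.02 for 42 imprinted genes and −0.08 for 12 connexins and pannexins. None of these genes passed the test with limma.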

How the data were processed

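Total RNA of mouse cochlear turns was sequenced as 12 libraries. The authors trimmed reads with fastp 0.20.0, aligned them to mm10 with STAR 2.7.3a and calculated with StringTie 2.0 the FPKM deposited as 1 table, which alone was used here. Sample columns were matched to the sample labels by title and 0 were left out. The authors tested read counts with DESeq2, and those counts were not used here. Because FPKM carry no counts, the depth is unknown and the spread between libraries is the only measure of precision.

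A median-of-ratios factor was computed for each library over the 11552 genes that reached 1 FPKM throughout. The 16215 genes reaching 1 FPKM in 2 or more libraries were fitted with limma 3.58.1 in R 4.3.3 on log2(scaled FPKM + 1), with eBayes and a trend, two-sided, genotype as the coefficient and turn as a block, and p-values were adjusted over all 16215. Members were autosomal genes whose genotypes did not overlap. The interaction was an F test in a fit of genotype by turn. The fit was tested on simulated data. Named genes were *Gjb2* and *Gjb6*, the 12 largest rises and 12 largest falls among members with a mean of at least 5 in the higher genotype, the 2 of highest mean in each direction, members in a fixed list, the genes next to the edge of the rule, and members within 5 Mb of *Gjb2*; other names were chosen after their values were seen, as were the copy criterion and the gene families. Copies were searched with blastn 2.17.0 in the GENCODE M21 transcripts of GRCm38; of the identifiers tested, 97.76% were found there with their version. Figures were drawn with matplotlib 3.10.9. Coordinates are those of the deposited table. The members and lists were chosen with earlier results of these data known.

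Libraries with the same repeat number were not treated as pairs, since nothing given links a wild-type library to a homozygous one. Turns of 1 genotype may share mice, which the fit does not model; a random block of genotype and repeat number was an alternative. Alternatives covered the pseudocount, filter, scaling, blocks, weights, trend, thresholds and the libraries and turns left out.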

Additional observations from a re-analysis of the deposited data

Results flagged for a closer look

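The genotype effect of 11 members differed between turns by the interaction test in limma, and their adjusted p-values are given here. For *6330403K07Rik* it was 0.00848, with log2 differences of 1.60, 0.45 and 3.03 in the apical, middle and basal turns. For *Ppm1a* it was 0.0102 and for *Dnajc3*, a chaperone of the endoplasmic reticulum, 0.0106. For *Gpx2* it was 0.0185, for *Dhrs3* 0.0246 and for *Kat2a*, a histone acetyltransferase, 0.0280. The others were *Zmynd12* with 0.0304, *Gbp4* with 0.0340, *Col4a3* with 0.0390, *Bdnf* with 0.0416 and *H2-Q5* with 0.0419. No cause of these differences was tested.

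Among the named genes, 1 library of a genotype stood apart from the other 5 in 9 of 71 sets of 6 libraries (12.7%), where chance alone would give about 5%. The 6 libraries come from 3 turns. The gap to the nearest library was 0.905 of the range for *Gm10260* (wild-type, 0.0746 against 0.00706), 0.632 for *Tpm3-rs7* (wild-type, 0.0586 against 0.198), 0.642 for *Myoc* (wild-type, 13.5 against 5.03) and 0.736 for *Slc5a5* (wild-type, 3.39 against 1.06). It was 0.669 for *Rps3a2* (wild-type, 2.71 against 1.72), 0.670 for *Ndrg2* (wild-type, 308 against 202), 0.771 for *Thrb* (homozygous, 0.0363 against 0.00833), 0.743 for *H2-Ea-ps* (homozygous, 11.8 against 3.86) and 0.642 for *Ide* (homozygous, 13.5 against 14.8). For *Gm10260*, *Tpm3-rs7* and *Thrb* these gaps lie among values near 0.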

How the results depend on the processing

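Over 1083 values of named genes under the alternatives, 947 kept their direction and side of the threshold, 67 lost and 69 gained the call, and none reversed. *Gm10260*, *Atp6v0c-ps2*, *Tpm3-rs7*, *Eno1b*, *Gm4735* and *Thrb* kept their call in all 31 alternatives, *Wdfy1* in 28, *Col4a3* in 27, *Zfp560* in 20, *Rps3a2* in 16 and *Col4a4* and *Naalad2* in 14. The cause of the changes was not tested.

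The 25 genes that passed (16 higher, 9 lower) became 9 (6 and 3) with at least 5 FPKM and 57 (29 and 28) on 6 group means. With a random block of genotype and repeat number they became 88 (44 and 44), at an estimated correlation of −0.217. That fit leaves genotype effects that differ between turns in its residuals, which lowers this correlation. The value therefore cannot tell whether turns of equal number deviate together. With library weights, whose estimate stopped before convergence, the 25 became 416 (262 and 154). They became 280 (184 and 96) with weights estimated gene by gene, an alternative chosen after seeing the data. At an adjusted p under 0.05 they became 41, with 18 lower, and 5 were lower with no filter and also with an equal sum. Without the apical turn 8 passed (7 and 1), without the middle turn 16, with 8 higher, and without the basal turn 411 (240 and 171).

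The 229 members (127 and 102) became 140 (83 and 57) with at least 5 FPKM. With 2 turns the rule is easier to meet: 627 (377 and 250) without the apical, 747 (312 and 435) without the middle and 3412 (1665 and 1747) without the basal turn, of which 218, 222 and 218 were among the 229. These were 4.16%, 4.89% and 22.8% of the genes tested. Each setting holds 2 turns, so that the basal libraries limited the set most. Repeats correlated least in the wild-type basal turn (Pearson r = 0.8912), and the cause was not tested. On the FPKM as deposited 59 were lower, and 56 with an equal sum; 178 and 114 of the 229 remained. With a mean of at least 1 in both genotypes, also chosen after seeing the data, 164 remained.

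The 2643 genes whose effect differed between turns became 721, and the 11 such members 1, at an adjusted p under 0.01. The 6 genes near 0 in one genotype became 2 with at least 5 FPKM and 16 without the basal turn. The 2 genes that passed in fixed lists became 6 on group means, 8 with the random block, 41 with library weights, 23 with weights gene by gene, 1 without the apical turn, 1 without the middle turn and 34 without the basal turn. The log2 difference of *Gjb2* turned from −0.21 to 0.66 without the basal turn (exact permutation p = 0.111).

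Leaving out each library in turn gave 12 to 37 genes that passed (9 to 25 higher, 3 to 12 lower), 252 to 555 members (130 to 277 and 112 to 278), 1537 to 3326 genes and 3 to 22 members with an effect that differed between turns, 6 to 6 genes near 0, 2 to 3 list genes and −0.39 to −0.03 for *Gjb2*. Of the 25 genes that passed, 12 did in all 12 of these fits. Between 224 and 229 of the members remained in each.

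Nothing pairs the samples of equal repeat number, whose deviations from their group means correlated by −0.0694, −0.0091 and 0.207. With turn and repeat number as a block of 6 pairs, 10 genes passed (9 higher and 1 lower), and 1 in the fixed lists. With the repeat number as a fixed term, the effect differed between turns in 2243 genes and 8 members. FPKM show no depth, so that no limit from depth can be given.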

Other observations

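Outside the autosomes, 547 genes were tested and 4 passed the test with limma, all lower in homozygous libraries. *Eif2s3y*, *Kdm5d* and *Gm29650* lie on chromosome Y and had log2 differences of −4.50, −1.12 and −2.01, and *Xlr3b* on chromosome X had −1.88. *Eif2s3y* was at 13.2 to 32.1 scaled FPKM in wild-type libraries and was listed at 0 to 0.0319 in homozygotes. A further pair of chromosome Y genes overlapped or lay close between the genotypes: *Ddx3y* was at 19.8 to 26.2 and 18.1 to 24.04, and *Uty* at 5.69 to 7.65 and 4.95 to 5.76, with log2 differences of −0.09 and −0.28 that did not pass the test. The study's methods give all mice as males.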
